A study of Mus musculus with 3 samples.

Results

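Cadherins and protocadherins are calcium-dependent cell surface proteins, and their transcripts were followed through neuronal nuclei of the mouse habenula region. Members were taken by symbol: Cdh or Pcdh followed by a digit, or a symbol starting with Pcdha, Pcdhb or Pcdhg. This gave 92 of the 32285 genes in the count table. They were described in the 592 nuclei that the authors annotated as neurons, out of 603. The nuclei came from the dissected lateral habenula (LHb), an epithalamic nucleus, of mothers (females with sexual experience), virgin females and virgin males. All groups shared the sort for KASH-GFP, a green fluorescent protein anchored to the nuclear envelope, and the label KASH-GFP+ BNST LHb neurons, where BNST denotes the stria terminalis bed nucleus. The sources used here do not give how the tag was delivered, the strain, the age, the genotype or the time since birth of a litter. Each group was 3 mice and 1 library, so a difference between groups and a difference between libraries cannot be told apart, and no test between groups was made.

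A cadherin holds cells together through repeated extracellular domains that bind, mostly, to cadherins of the same kind on the facing membrane. Classical cadherins of type I and type II bind catenins inside the cell and so reach the actin skeleton, and neurons of different nuclei carry different sets of them along axons and at synapses. Non-clustered protocadherins of the delta group act in adhesion and sorting of axons through other cytoplasmic partners. Clustered protocadherins (Pcdha, Pcdhb and Pcdhg) are made from a row of alternative promoters, of which a neuron uses a few, and are known for self-recognition between branches of a neuron.

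Levels are given as CPM, the UMIs of a gene (unique molecular identifiers, each a counted transcript) per 1000000 UMIs of the same nuclei. The neuronal nuclei held 2691639, 2718356 and 2122919 UMIs for mothers, virgin females and virgin males, with medians per nucleus of 11898, 13181 and 9414. No barcode was shared between libraries (0 in all), and Xist, a transcript of female nuclei, had 1918, 1662 and 0 UMIs in that order. The authors' clusters 0 to 4 held 172, 157, 97, 91 and 75 neuronal nuclei. Summed thalamic markers (Lef1, Prkcd, Rora, Ntng1, Gbx2, Plekhg1) stood at 7089, 2053, 8266, 10641 and 1454 CPM in clusters 0 to 4, and LHb markers (Gap43, Htr2c, Gpr151, Pou4f1, Chrm3) at 752, 1586, 929.6, 1041 and 1471 CPM. Pou4f1, a defining habenular transcription factor, had 0, 27.9, 0, 0 and 7.73 CPM in that order. Clusters 0, 2 and 3 thus carried the high thalamic sums and no UMI of Pou4f1, so clusters are called by number here. Single markers did not all part the clusters this way. The LHb marker Gpr151 had 11.6, 14.8, 4.40, 0 and 1.29 CPM in clusters 0 to 4, from 58 UMIs. The thalamic Prkcd had 13.4, 9.69, 189, 536 and 1.29 CPM. Most of the thalamic sum of cluster 0 came from Ntng1 (4196 CPM) and Rora (2425 CPM). Of the ependymal and choroid markers, 423 CPM stood in cluster 1 against at most 5.15 elsewhere, nearly all from Ttr (413 CPM) and from virgin males (353 CPM in that library). In virgin males 5 neuronal nuclei had at least 1% of their UMIs in non-neuronal markers, against 0 in mothers and 0 in virgin females. Brackets after a value hold its exact 95% interval, which covers counting error, treats UMIs as independent, and leaves out variation between mice and between nuclei.

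The members together held 56886 UMIs, 0.755% of all neuronal UMIs. Of the 92, 3 had no UMI (Cdh5 of endothelial junctions, Pcdh12 and Pcdhb1), 17 had 1 to 9, 44 had 10 to 49, 5 had 50 to 99 and 23 had 100 or more. Those 23 were 21 of the 35 non-clustered genes and 2 of the 57 clustered ones. The epithelial cadherin Cdh1 had 3 UMIs, Cdh3 12, Cdh15 of muscle 5, Cdh16 2 and Cdh17 1. Among the other members under 100 UMIs were Cdh24 with 60 and Cdh23, a tip-link cadherin of hair cells, with 40. Pcdh8 and Pcdh18 had 37 UMIs each, Pcdh20 had 7, Cdh19 had 5 and Cdh26 had 3. Non-clustered members with 100 UMIs or more had a median gene length of 220 kb (26.1 to 1550), against 32.7 kb (4.54 to 394) for the 14 below it, so levels of different genes are not set against each other.

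A member was counted as differing between clusters where its highest cluster was at least 2-fold over its lowest, the same cluster was highest in each of the 3 libraries, and it had at least 100 UMIs. By this rule 15 of the 23 members differed, against 16.1% of the 9111 genes with as many UMIs. The share grew with depth over all genes, to 18.0% of genes with at least 300 UMIs, where 13 of 19 members passed. At 1000 UMIs, a minimum added after the values were seen, it was 24.8% of genes, and 8 of 13 members passed. The median ratio of highest to lowest cluster was 4.18 for the members and 1.79 for all genes tested. The clusters were made by the authors from these nuclei and genes, so these counts are a description and carry no test. Of the 23 members tested, 6 passed with cluster 4 highest, against 3.97% of the 9111 genes tested. A further 3 passed with cluster 1 highest (4.41%), 3 with cluster 2 (0.878%), 3 with cluster 3 (3.28%) and none with cluster 0 (3.55%). These percents are of all genes tested, not of those that passed. Of the 1466 genes that passed, clusters 0 to 4 were highest for 323, 402, 80, 299 and 362. Cluster 1 thus led among all genes that passed, and cluster 4 among the members that passed. Of those with cluster 4 highest, Cdh9 and Cdh22 reached 100 UMIs only through that cluster. It held 105 of the 161 UMIs of Cdh9 and 54 of the 143 of Cdh22, so their passing lends no support to that lead. In 14 of the 15, the 3 values of the highest cluster lay above every value of the other clusters, the exception being Pcdh7, and the same held for 66.2% of the 1466 genes of the whole table that passed. Without the 5 nuclei rich in non-neuronal markers the same 15 passed. Thinning every nucleus to 4000 UMIs left Cdh9 and Cdh22 with 62 and 55 UMIs, under the minimum, while cluster 4 stayed their highest in each library. It also ended the call for Pcdh1 (92 UMIs) and for Pcdh7, whose highest cluster then differed between libraries, and added Cdh8 and Cdh18. Leaving out the richest 5% of nuclei ended the call for Cdh6, Pcdh11x and Pcdh7, whose highest cluster then differed between libraries, and added Cdh11.

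**Figure D1:**
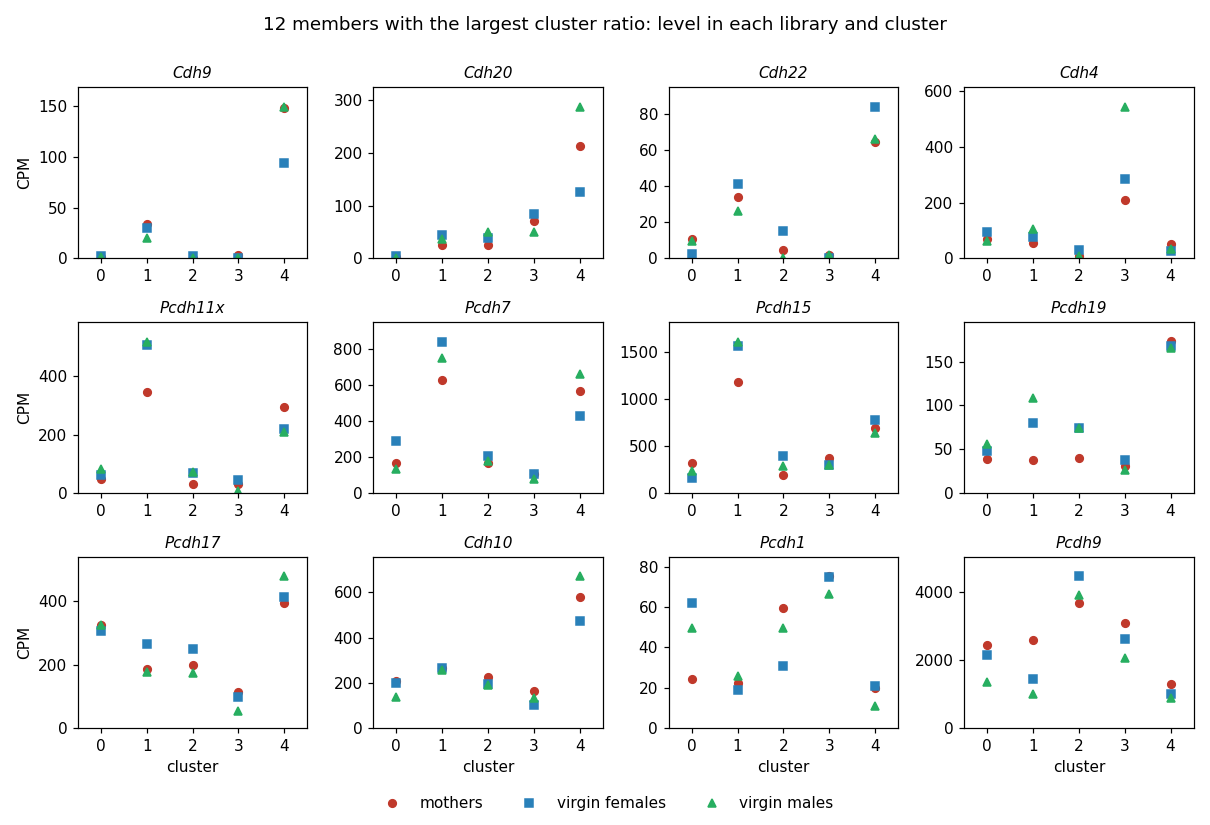
Level in CPM (vertical axes, linear, from 0) of the 12 members with the largest ratio of highest to lowest cluster, by deposited cluster 0 to 4 (horizontal axes); each point is 1 library of mothers, virgin females or virgin males. Cdh9, Cdh20 and Cdh22 peak in cluster 4, Cdh4 in cluster 3, Pcdh11x and Pcdh15 in cluster 1 and Pcdh9 in cluster 2, in each library.

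Cluster 4 had the highest levels of a trio of type II cadherins, Cdh9, Cdh20 and Cdh22, which bind catenins as the type I cadherins do. Cdh9 (chromosome 15, 16728756 to 16857094, plus strand on GRCm38), known for its part in mossy fibre synapses of the hippocampus, stood at 1.51, 33.8, 0, 3.59 and 149 CPM in clusters 0 to 4 of mothers. It stood at 2.29, 29.5, 2.18, 0 and 94.3 in virgin females and at 1.60, 19.5, 0, 0 and 149 in virgin males. The gene was thus near 0 in clusters 0, 2 and 3, low in cluster 1 and high in cluster 4 of every library. With libraries summed, cluster 4 was 4.84-fold [3.42, 6.94] over cluster 1, and its ratio to cluster 2 was 184-fold [32.4, 7348], where cluster 2 held 1 UMI. A level of 0 in a library's cluster allows up to 3 UMIs, which is 3.43 to 16.5 CPM over the 15 combinations of library and cluster.

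Cdh20 (chromosome 1, 104768529 to 104995481, plus strand) was low in cluster 0 and highest in cluster 4. Its levels were 3.01, 24.8, 25.7, 70.1 and 213 CPM in mothers, 4.58, 44.8, 39.3, 83.4 and 126 in virgin females and 0, 36.8, 49.7, 49 and 286 in virgin males. With libraries summed cluster 3 came next, and cluster 4 was 3.21-fold [2.48, 4.17] over it and 75.2-fold [33.8, 208] over cluster 0. Cdh22 (chromosome 2, 165111507 to 165234853, minus strand) had its highest level in cluster 4 and its second in cluster 1. It stood at 10.5, 33.8, 4.81, 1.80 and 64.4 CPM in mothers, at 2.29, 41.3, 15.3, 0 and 83.8 in virgin females and at 9.58, 26.0, 0, 1.75 and 66.1 in virgin males. The step from cluster 1 to cluster 4 was 1.97-fold [1.34, 2.88], and the ratio to cluster 3, which held 2 UMIs of the gene, was 51.3-fold [13.5, 435]. The trio thus shared cluster 4 as the highest in each library and parted in the remaining clusters, where Cdh20 was present in clusters 1 to 3 and Cdh9 and Cdh22 mainly in cluster 1.

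The start regions of these 3 genes are shown because they are the members with the largest cluster ratios and share cluster 4 as the highest. RefSeq on GRCm38.p6 gave a window of 250 bases before to 50 after the start for 22 of the 92 members, and for all 6 with cluster 4 highest. The windows are chr15:16728665-16728964 on the plus strand for Cdh9, chr1:104768270-104768569 on the plus strand for Cdh20 and chr2:165234688-165234987 on the minus strand for Cdh22, each written 5′ to 3′ along the gene, with any GGGCGG in capitals.
Cdh9: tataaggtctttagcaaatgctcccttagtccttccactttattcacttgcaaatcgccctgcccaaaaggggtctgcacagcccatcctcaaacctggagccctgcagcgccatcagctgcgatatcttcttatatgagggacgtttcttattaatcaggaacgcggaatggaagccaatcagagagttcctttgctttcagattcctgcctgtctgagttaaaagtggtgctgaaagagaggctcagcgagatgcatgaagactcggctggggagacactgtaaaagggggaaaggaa
Cdh20: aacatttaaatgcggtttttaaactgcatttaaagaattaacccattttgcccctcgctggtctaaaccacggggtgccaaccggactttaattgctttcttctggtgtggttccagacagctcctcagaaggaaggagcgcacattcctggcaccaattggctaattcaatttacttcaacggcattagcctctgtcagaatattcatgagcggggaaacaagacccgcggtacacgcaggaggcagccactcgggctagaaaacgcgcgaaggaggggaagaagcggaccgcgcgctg
Cdh22: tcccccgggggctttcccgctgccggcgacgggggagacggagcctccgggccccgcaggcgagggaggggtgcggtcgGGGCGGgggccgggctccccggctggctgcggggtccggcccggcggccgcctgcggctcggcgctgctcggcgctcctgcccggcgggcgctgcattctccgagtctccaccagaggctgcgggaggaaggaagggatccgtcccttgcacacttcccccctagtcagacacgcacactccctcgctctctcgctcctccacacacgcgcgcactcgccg
Each was searched on both strands for a TATA box, a GC box and a pair of further motifs named with their shares, and no motif contains another. The windows of Cdh9, Cdh20 and Cdh22 had GC contents of 48.7%, 50.7% and 76.3%, against a median of 52.7% over all 32851 windows. The GC box GGGCGG lay in 3 of the 6 windows of cluster 4 genes (Cdh22, Pcdh17 and Pcdh19), and in 35.7% of all windows. The TATA box TATAAA had no match in the 6 and lay in 13.6% of all windows. The motif CTTTGA, bound by factors of the Wnt pathway, had none and lay in 16.0% of all. The homeodomain motif TAATTA also had none and lay in 5.29% of all. No shared motif among those searched covered the trio.

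Shares of nuclei with a UMI followed the levels when every nucleus was thinned to 4000 UMIs, which left out 10, 8 and 15 shallower nuclei of mothers, virgin females and virgin males. Cdh9 was seen in 41.1% [29.7, 53.2] of cluster 4 nuclei, 8.76% of cluster 1 and 1.11% of cluster 3. At this thinned depth, 0 of the 165 nuclei of cluster 0 and 0 of the 94 of cluster 2 had a UMI, with exact upper bounds of 2.21% and 3.85%. Without thinning the share in cluster 4 was 70.7% and in clusters 0 to 3 it was 2.33, 15.3, 1.03 and 2.20%. Median depths of clusters 0 to 4 were 11465, 9894, 12639, 15007 and 9431 UMIs, so the cluster with most Cdh9 was the shallowest. Cdh20 was seen in 43.8% [32.2, 55.9] of cluster 4 and Cdh22 in 23.3% [14.2, 34.6]. In clusters 0 to 3 the thinned shares were 2.42, 13.1, 16.0 and 22.2% for Cdh20 and 3.64, 13.1, 4.26 and 0% for Cdh22, where 0 of 90 nuclei had an exact upper bound of 4.02%. Without thinning, 2.20% of cluster 3 nuclei had a UMI of Cdh22. Of 6 non-neuronal nuclei kept at this depth, 0 had Cdh9, 1 had Cdh20 and 1 had Cdh22.

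**Figure D2:**
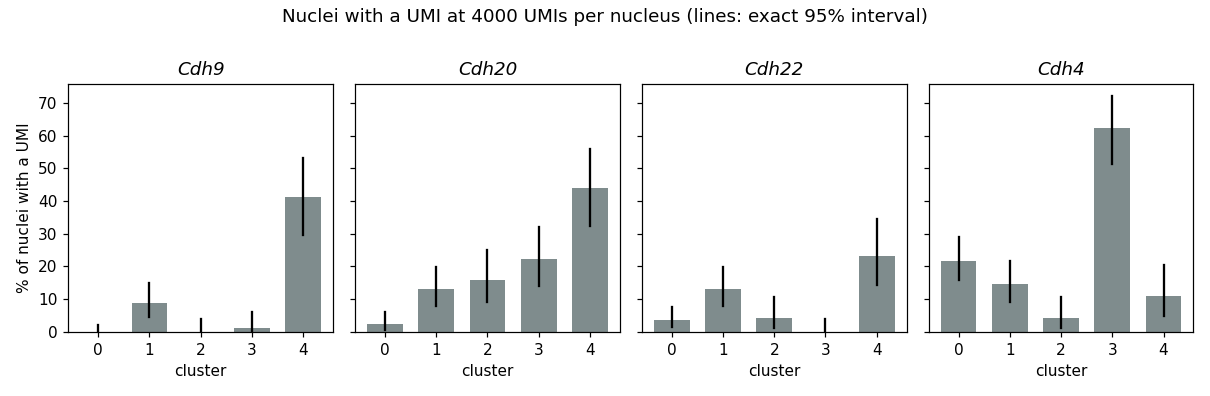
Percent of neuronal nuclei with at least 1 UMI of Cdh9, Cdh20, Cdh22 and Cdh4 (vertical axis, from 0) in clusters 0 to 4 (horizontal axes), all nuclei thinned to 4000 UMIs; bars are shares and lines their exact 95% intervals. Cdh9 reaches 41.1% in cluster 4 and Cdh4 62.2% in cluster 3, above the intervals of the remaining clusters.

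Genes of the trio were detected together, pair by pair, in a part of the nuclei. Of the 75 nuclei of cluster 4, unthinned, 31 had both Cdh9 and Cdh20, 22 had Cdh9 without Cdh20, 14 had Cdh20 without Cdh9 and 8 had neither. For Cdh9 and Cdh22 these numbers were 22, 31, 10 and 12, and for Cdh20 and Cdh22 they were 21, 24, 11 and 19. Whether these genes met in a nucleus more often than their separate shares would give was not tested. At a median of 9431 UMIs a nucleus without a UMI of a gene may still have held its transcript. The 10% of neuronal nuclei with most UMIs of a gene held 84.5% of all Cdh9 UMIs, 72.0% of Cdh22 and 69.6% of Cdh20. For the broadly present Cdh2 the same share was 30.4%.

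Among the type I cadherins, Cdh4 and Cdh2 had 100 UMIs or more, and both passed the cluster rule. Cdh4 (R-cadherin, chromosome 2, 179442431 to 179899373, plus strand) stood at 67.8, 56.3, 6.42, 210.2 and 52.0 CPM in clusters 0 to 4 of mothers, 92.7, 77.8, 28.4, 285 and 26.2 in virgin females and 62.3, 106, 7.10, 542 and 33.1 in virgin males. Cluster 3 was the highest in each library and cluster 2 was the lowest or next to it. With libraries summed, cluster 3 was 4.46-fold [3.70, 5.42] over the second, cluster 1, and 25.6-fold [16.2, 42.8] over cluster 2. Thinned to 4000 UMIs, Cdh4 was seen in 62.2% [51.4, 72.2] of cluster 3 nuclei, against 21.8%, 14.6%, 4.26% and 11.0% in clusters 0, 1, 2 and 4. Cdh2 (N-cadherin, a general adhesion molecule of synapses) was spread more evenly, from 143 to 236 CPM in cluster 4 to 547 to 602 in cluster 2 over the 3 libraries, a ratio of 2.91-fold [2.44, 3.48].

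Of the 13 type II cadherins, 10 had enough UMIs and 6 passed the cluster rule. Cdh10 (chromosome 15, 18818947 to 19014236, plus strand) had 209, 264, 226, 165 and 579 CPM in mothers, 200.4, 266, 196, 101 and 471 in virgin females and 139, 256, 192, 133 and 672 in virgin males. It was present in every cluster and stood 2.19-fold [1.91, 2.49] higher in cluster 4 than in cluster 1, the second. Cdh12 (chromosome 15, 20449265 to 21589533, plus strand) was highest in cluster 3, at 587, 642 and 673 CPM in mothers, virgin females and virgin males, against 188 to 343 over the remaining clusters. In cluster 3, 73 of the 91 nuclei had both Cdh12 and Cdh4, 16 had Cdh12 alone, 2 had Cdh4 alone and 0 had neither. Each gene was common there, and joint detection beyond their separate shares was not tested. Cdh6 (chromosome 15, 13028701 to 13173675, minus strand), known for the targeting of retinal axons, was highest in cluster 2 at 132, 168 and 139 CPM and lowest in cluster 4 at 61.9, 36.7 and 38.6.

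The remaining type II cadherins with 100 UMIs or more were Cdh18, Cdh7, Cdh8 and Cdh11, and these did not keep 1 highest cluster or missed the 2-fold ratio. Cdh18 (chromosome 15, 22549022 to 23474418, plus strand) was high in clusters 1 and 4 of every library, at 1588, 1977 and 1714 CPM in cluster 1 and 1812, 1985 and 1482 in cluster 4. In clusters 0, 2 and 3 it ranged from 148 to 768 CPM. The pair on top changed places between libraries (ratio 1.02 [0.955, 1.09] summed), which kept Cdh18 out of the 15 although its highest cluster was 9.57-fold [8.63, 10.6] over its lowest. Cdh8 was lowest in cluster 0 at 250, 264 and 229.9 CPM and highest in cluster 2 in mothers and in cluster 1 in both virgin libraries. Cdh7 was lowest in cluster 3 at 37.7, 34.5 and 50.7 CPM. Cdh11 had cluster 4 highest in each library, at 379, 435 and 397 CPM, and lay just outside the rule with 1.96-fold [1.69, 2.27], while the called member nearest to it was Cdh6 with 2.89-fold [2.04, 4.19].

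The type II genes of chromosome 15 lie in 1 stretch of the chromosome, in the order Cdh6, Cdh9, Cdh10, Cdh12 and Cdh18, and their highest clusters with libraries summed were 2, 4, 4, 3 and 1. Neighbouring members thus had different clusters on top, apart from Cdh9 and Cdh10. The atypical Cdh13 (T-cadherin, which is held by a lipid anchor and lacks the catenin-binding tail) was the 1 member of its group with 100 UMIs. It was lowest in cluster 4 of virgin females and mothers, at 503, 243, 292, 384 and 124 CPM in mothers, 404, 259, 299, 527 and 162 in virgin females and 369, 95.3, 281, 306 and 105 in virgin males. Its highest cluster was 0 in mothers and virgin males and 3 in virgin females.

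All 4 delta-1 protocadherins passed the cluster rule, with 3 different clusters on top. Pcdh9 (chromosome 14, 93013410 to 93890679, minus strand) stood at 2445, 2581, 3693, 3086 and 1287 CPM in mothers, 2149, 1449, 4491, 2636 and 1011 in virgin females and 1344, 988, 3921, 2066 and 892 in virgin males. Cluster 2 was highest and cluster 4 lowest in each library, a ratio of 3.56-fold [3.31, 3.82]. Pcdh11x (chromosome X, 120290259 to 120910619, plus strand), had another arrangement, with 48.2, 347, 30.5, 30.5 and 297 CPM in mothers. The virgin females had 60.7, 508, 69.8, 46.0 and 219.9 CPM and the virgin males 81.4, 518, 71.0, 8.74 and 209. Clusters 1 and 4 were above the remaining ones in every library, and cluster 1 was 1.82-fold [1.56, 2.14] over cluster 4. Pcdh7 (chromosome 5, 57717967 to 58133230, plus strand), whose tail binds a protein phosphatase, shared this arrangement, with 164, 624, 165, 108 and 567 CPM in mothers, 286, 839, 205, 104 and 429 in virgin females and 136, 747, 178, 78.7 and 661 in virgin males. Its cluster 1 was 1.37-fold [1.23, 1.53] over cluster 4, and the values of those clusters overlapped between libraries. Pcdh1 (chromosome 18, 38185914 to 38212053, minus strand) had the fewest UMIs of the 4, at 24.1, 22.5, 59.4, 75.4 and 19.8 CPM in mothers. It stood at 61.8, 18.9, 30.6, 74.8 and 20.9 CPM for virgin females and 49.5, 26.0, 49.7, 66.5 and 11.0 for virgin males. Cluster 3 was its highest in each library and 1.51-fold [1.10, 2.08] over the second.

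Of the 5 delta-2 protocadherins, Pcdh17, Pcdh19 and Pcdh10 had 100 UMIs or more, and the first pair passed with cluster 4 on top. Pcdh19 (chromosome X, 133582860 to 133688987, minus strand), X-linked and known for an epilepsy that affects females, stood at 39.2, 38.3, 40.1, 30.5 and 173 CPM in mothers, 48.1, 80.2, 74.2, 37.4 and 168 in virgin females and 55.9, 108, 74.6, 26.2 and 165 in virgin males. Its 3 cluster 4 values lay within 165 to 173 CPM. Pcdh17 (chromosome 14, 84443563 to 84539002, plus strand), known from presynaptic sites of the basal ganglia, had 324, 185, 197, 115 and 396 CPM in mothers, 307, 266, 249, 97.8 and 414 in virgin females and 324, 175, 174, 54.2 and 479 in virgin males. Cluster 0 came close behind cluster 4, which was 1.32-fold [1.16, 1.51] over it, and cluster 3 was lowest in each library. Pcdh10, known from the elimination of synapses, was highest in cluster 1 in virgin males at 364 CPM, and in cluster 4 in mothers and virgin females at 250 and 382.

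Pcdh15 (chromosome 10, 73099342 to 74649737, plus strand), a tip-link protocadherin of hair cells, stood at 316, 1180.3, 191, 377 and 688 CPM in mothers, 164, 1563, 395, 299 and 780.3 in virgin females and 229.9, 1614, 284, 303 and 644 in virgin males. Cluster 1 was 2.11-fold [1.92, 2.32] over cluster 4, and cluster 4 lay above clusters 0, 2 and 3 in every library. Clusters 1 and 4 were the highest pair for 9 of the 23 members and for 28.2% of all genes tested, a rule added after the values were seen. They are also the clusters with the low thalamic marker sums. Their higher LHb sums do not hold marker by marker: by cluster from 0 to 4 the CPM of Chrm3 was 107, 644, 291, 598 and 992, so it made up most of the sum of cluster 4, where Htr2c was lowest at 403, 728, 444, 306 and 245. Gap43 had 231, 171, 190.0, 138 and 225 CPM and was highest in cluster 0. Summed medial habenula markers stood at 88.7, 444, 73.4, 19.0 and 139 CPM and GABAergic markers at 5.08, 57.0, 0, 0 and 59.2, both highest in clusters 1 and 4. Single genes carried these sums and did not go together. Nwd2 had 387 of the 444 CPM in cluster 1, while Calb2 had 84.1, 38.8, 69.0, 10.8 and 83.7 CPM in clusters 0 to 4. In cluster 4 the GABAergic sum was Gad2 alone, with 0 for Gad1 and Slc32a1. The part of the cell type mix in the members' levels was not tested.

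Cluster 1 could be parted further by a deposited subtype label, LHb2 for 86 of its nuclei and LHb4 for 71, a split added after the values were seen. Of 19 members with at least 50 UMIs, 6 were at least 1.5-fold higher in LHb2 nuclei (7.97% of 6264 genes) and 2 at least 1.5-fold lower (6.55%). Pcdh9 stood at 2218 against 661 CPM (3.36-fold [3.03, 3.72]) in LHb2 against LHb4 nuclei. By library its values were 3271 against 1431, 1980.0 against 469 and 1562 against 330.1 CPM in mothers, virgin females and virgin males. Pcdh19 had 102 against 36.8 CPM (2.78-fold [1.79, 4.49]) and Cdh13 277 against 110.3 CPM (2.51-fold [1.94, 3.27]). Cdh7, Pcdh7 and Cdh11 were the others on the higher side, with 103, 887 and 335 CPM in LHb2 and 55.9, 561 and 221 in LHb4. The values of Cdh7 in virgin males were 60.9 against 65.1 CPM, and without virgin females its ratio was 1.13, against 1.85 with all libraries. Cdh11 also went under 1.5-fold without virgin females (1.23), and Pcdh7 without virgin males (1.39). On the lower side were Cdh20 with 23.3 against 60.3 CPM (0.39-fold [0.22, 0.65]) and Cdh22 with 25.1 against 51.5 CPM (0.49-fold [0.28, 0.83]). Without virgin females the ratio of Cdh13 was 4.80 and that of Cdh20 0.243. These labels are the authors' and belong to the same nuclei, so the values describe the labels.

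The clustered protocadherins were sparse in these counts: 57 genes with 1462 UMIs in all, 2.57% of the members' UMIs. At least 1 UMI was seen for 14 of 14 Pcdha, 21 of 22 Pcdhb and 21 of 21 Pcdhg genes, and at least 10 for 10, 19 and 17. In GENCODE M21 the 13 Pcdha names share 3 exons and the 22 Pcdhg names share 2, with an extra entry, Pcdha11.1, in the count table. The counting could thus divide or drop reads of these exons. Single Pcdha and Pcdhg genes are uncertain, and dropped reads would also lower their sums and the genes seen per nucleus. The part of dropped reads in these values was not tested. The pair with 100 UMIs or more, Pcdhb14 and Pcdhb17, did not keep 1 highest cluster, and ranged from 2.88 to 33.1 and from 3.50 to 36.7 CPM over libraries and clusters. Summed Pcdha stood at 43.0, 34.8, 40.4, 33.2 and 41.2 CPM in clusters 0 to 4. Summed Pcdhb stood at 80.0, 98.1, 114, 76.6 and 125 CPM and summed Pcdhg at 50.8, 63.3, 67.5, 52.8 and 91.4. All clustered genes together were highest in cluster 4, at 258 [223, 296] CPM, and lowest in cluster 3, at 163 [143, 185]. By library, cluster 4 had 240.1, 298 and 253 CPM in mothers, virgin females and virgin males, above each remaining cluster of the same library. Cluster 2 came close, with 205, 234 and 238 CPM. Between libraries, summed Pcdha stood at 31.6, 44.1 and 40.0 CPM, Pcdhb at 95.1, 95.3 and 91.9 and Pcdhg at 56.1, 66.2 and 61.7.

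**Figure D3:**
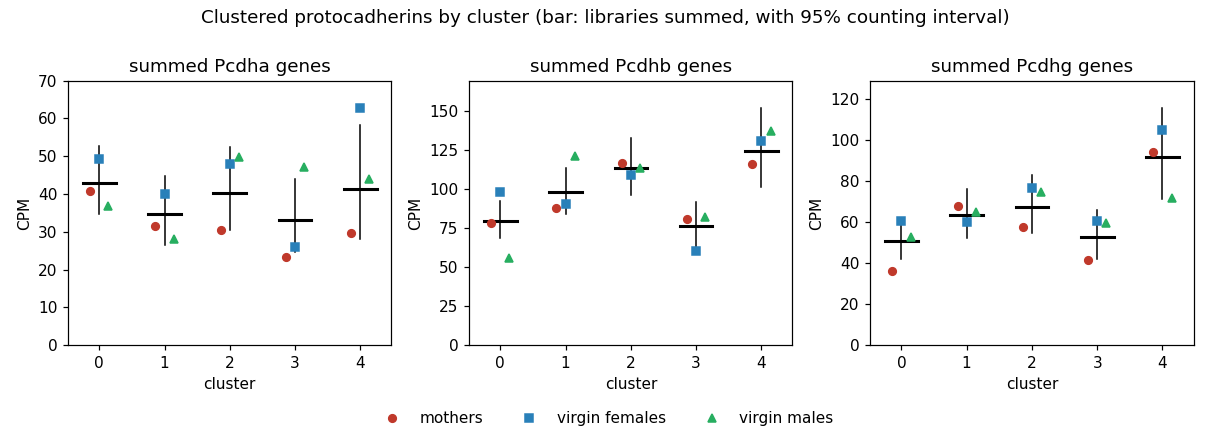
Summed level in CPM (vertical axes, from 0) of the Pcdha, Pcdhb and Pcdhg genes in clusters 0 to 4 (horizontal axes); black bars are libraries summed with their exact 95% counting interval, and points are single libraries. With libraries summed, Pcdhb and Pcdhg are highest in cluster 4 (125 and 91.4 CPM), with intervals that overlap those of cluster 2. Cluster 2 is slightly above cluster 4 for Pcdhb in mothers (117 against 116 CPM) and for Pcdhg in virgin males (74.6 against 71.6 CPM).

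A UMI of a single clustered gene was found in 1302 pairs of gene and nucleus, and 1175 of these (90.2%) rested on 1 UMI, with 6 as the most. Thinned to 4000 UMIs, a nucleus had a median of 0, 1 and 0 clustered genes with a UMI for mothers, virgin females and virgin males, with highest values of 4, 5 and 3. The means were 0.681, 0.922 and 0.646 genes. No clustered gene was seen in 52.9% [45.5, 60.1], 40.8% [33.5, 48.4] and 54.0% [46.6, 61.2] of nuclei. Without thinning the medians were 2, 2 and 1.5 genes and the highest values 11, 8 and 9, so the number seen moved with depth. The number of clustered genes a nucleus used was not detectable at this depth and with the shared exons of Pcdha and Pcdhg. By cluster the thinned means were 0.764, 0.752, 0.649, 0.656 and 0.932, with cluster 4 again highest.

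**Figure D4:**
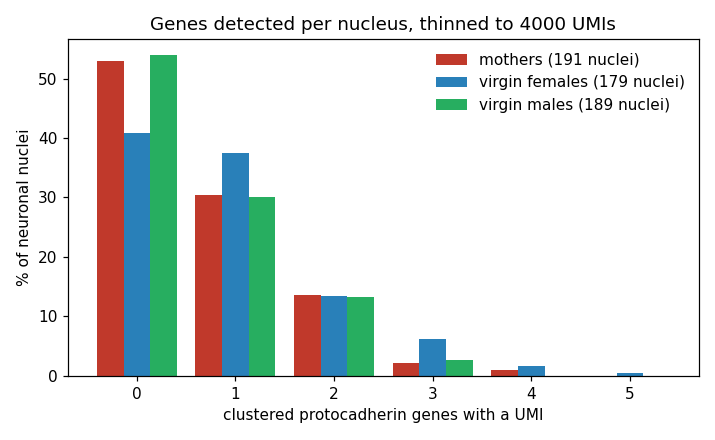
Percent of neuronal nuclei (vertical axis, from 0) by the number of clustered protocadherin genes with a UMI (horizontal axis), all nuclei thinned to 4000 UMIs, with bars for mothers, virgin females and virgin males. Most nuclei have 0 or 1 such gene, and the share with none is 40.8% in virgin females against 52.9% and 54.0% in mothers and virgin males.

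Members were also compared between pairs of libraries. A member was counted where the CPM of a pair of libraries differed by at least 1.5-fold and it had at least 50 UMIs in both together, and the 3 pairs share libraries. For mothers against virgin females, 1 of 24 members was higher (3.83% of 10388 genes) and 1 lower (3.66%). For virgin males against virgin females, 1 of 23 was higher (2.98% of 10024 genes) and 2 lower (4.58%). For mothers against virgin males, 3 of 23 were higher (4.25% of 9990 genes) and 1 lower (3.01%). These counts leave out smaller ratios whose interval also left out 1, such as Pcdh15 at 0.71 [0.66, 0.76] for mothers against virgin females. The members' median log2 ratios were -0.07, -0.10 and 0.03 for these pairs, and those of all genes tested -0.01, -0.02 and 0.01.

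**Figure D5:**
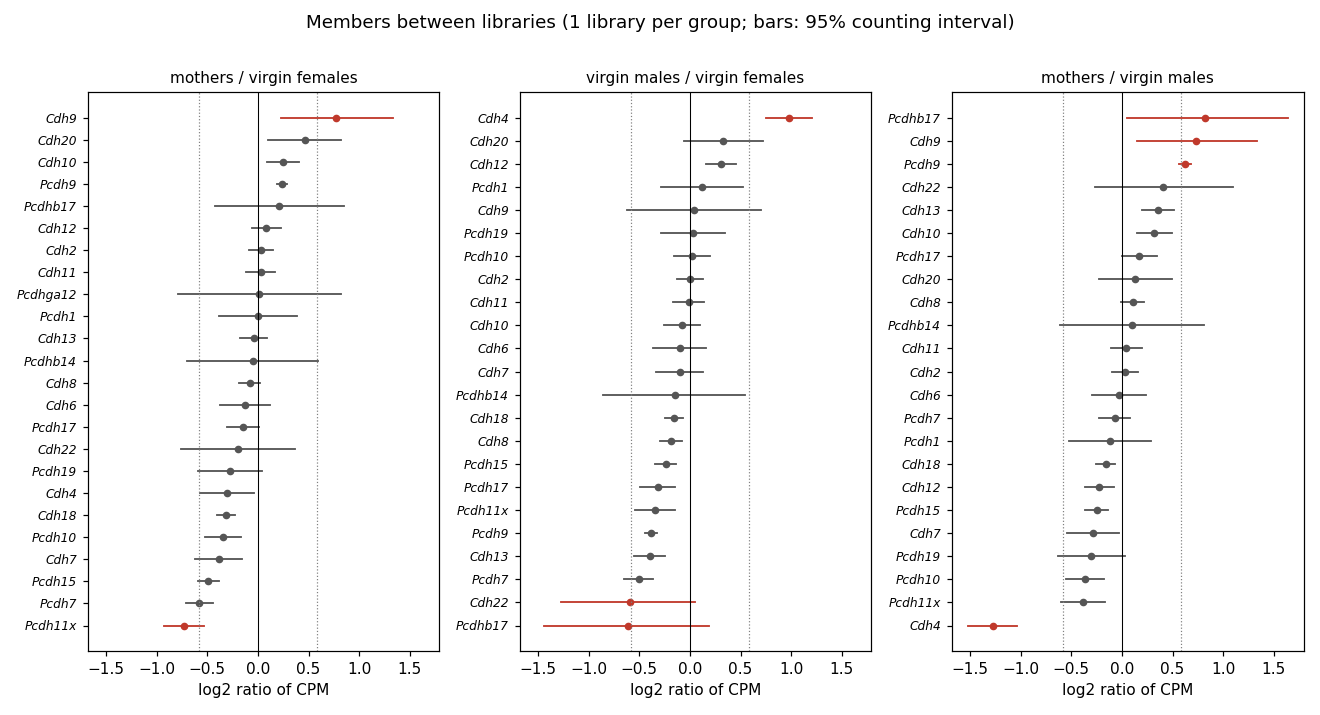
Log2 ratio of CPM (horizontal axes, 0 at the solid line, 1.5-fold at dotted lines) of each member with at least 50 UMIs in the pair, for mothers over virgin females, virgin males over virgin females and mothers over virgin males; lines are 95% counting intervals and red marks members past 1.5-fold. Most of the members shown lie within the dotted lines, and among them Cdh4 is the farthest out, high in virgin males.

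Of the members that reached 50 UMIs over both libraries, Cdh4 had the largest ratio between libraries. It stood at 78.8, 97.1 and 191 CPM in mothers, virgin females and virgin males, 1.97 [1.68, 2.31] for virgin males against virgin females and 0.41 [0.35, 0.49] for mothers against virgin males. The clusters' shares differed between the libraries, with 35, 17 and 39 nuclei in cluster 3, which holds most Cdh4. With the 5 clusters weighted equally the ratios were 1.47 and 0.52. Within cluster 3, 26, 14 and 35 nuclei had a UMI, the median nucleus had 2, 3 and 5 UMIs and the highest 14, 28 and 46. Virgin males were thus the highest in cluster 3, and thinned to 4000 UMIs the mean per nucleus was 0.971, 1.65 and 1.92 UMIs. Without the richest 5% of nuclei the log2 ratio of virgin males to virgin females dropped from 0.98 to 0.35.

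Pcdh9 had 2715, 2308 and 1764 CPM in mothers, virgin females and virgin males. Mothers against virgin males gave 1.54 [1.48, 1.60], with mothers higher in 4 of 5 clusters, and virgin males against virgin females gave 0.76 [0.73, 0.80], lower in 5 of 5. The exception for mothers was cluster 2, where the level is highest. With equal cluster weights the ratios of Pcdh9 were 1.42 and 0.78 for these pairs, the former under 1.5-fold. Pcdh11x had 127, 211 and 166 CPM, with 0.60 [0.52, 0.69] for mothers against virgin females and lower values in 4 of 5 clusters. Cluster 1, where Pcdh11x is highest, held 39, 65 and 53 nuclei of mothers, virgin females and virgin males, and with equal cluster weights the ratio was 0.83. In the same pair the LHb marker Htr2c, also highest in cluster 1, stood at 314 against 523 CPM (0.6-fold [0.55, 0.65]) and the thalamic marker Prkcd at 178 against 114 CPM (1.56-fold [1.35, 1.81]). Htr2c was also lower in mothers than in virgin males, at 314 against 532 CPM (0.59-fold [0.54, 0.65]), and the part of these differences in the members' ratios was not tested. Pcdh7 lay just inside 1.5-fold for mothers against virgin females, at 0.67 [0.61, 0.73].

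Cdh9 had 29.0, 16.9 and 17.4 CPM, 1.71 [1.17, 2.52] for mothers against virgin females and 1.66 [1.11, 2.53] for mothers against virgin males. Cluster 4, which holds most of it, had 34, 18 and 23 nuclei, of which 28, 11 and 14 had a UMI of Cdh9. Within cluster 4 mothers and virgin males stood at a ratio of 1.00, and with equal cluster weights at 1.10, while mothers against virgin females had 1.46 with equal weights. Pcdhb17 had 17.5, 15.1 and 9.89 CPM, 1.77 [1.03, 3.11] for mothers against virgin males, from 47 and 21 UMIs. It was higher in 5 of 5 clusters, each with 8 to 19 UMIs over both libraries. When nuclei were thinned its log2 ratio for this pair went from 0.82 to 0.50, under 1.5-fold. The remaining values past 1.5-fold, Cdh22 at 0.66 [0.41, 1.04] and Pcdhb17 at 0.66 [0.37, 1.14] for virgin males against virgin females, had intervals that held 1, and the latter turned to a log2 ratio of 0.14 when nuclei were thinned. Cdh13 stayed inside 1.5-fold but was lower in virgin males than in virgin females in 5 of 5 clusters, at 0.76 [0.68, 0.84]. Cdh2 (431, 422 and 422 CPM) and Cdh11 (294, 288 and 286 CPM) had nearly level values in the 3 libraries.

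Over 5 lists of partners, relatives, enzymes and regulators of the family, 6 of 48 genes tested passed the cluster rule, beside 15 of 23 members and 16.1% of all genes. Of 9 catenins and p120 relatives, which tie classical cadherins to actin, 1 passed the cluster rule: Ctnnd1 (p120 catenin), at 117, 75.8, 169, 249 and 68.3 CPM in clusters 0 to 4. Of 9 tested larger cadherin relatives, which include Fat, Dchs and Celsr genes, 1 passed, the calsyntenin Clstn2, at 223, 318, 453, 635 and 294 CPM. Of 10 cytoplasmic partners of protocadherins, Ptk2b, a kinase, had 33.7, 2.28, 78.5, 124 and 0 CPM, and Wasf3, of the actin-branching WAVE complex, 77.6, 124, 52.8, 50.1 and 91.4. Of 8 cleavage enzymes, the proprotein convertase Pcsk5 had 276, 20, 15.4, 8.81 and 182 CPM. Of 12 tested regulators of clustered promoters, the cohesin subunit Rad21 had 18.9, 19.4, 12.5, 16.9 and 34.8 CPM. Between libraries, Ctnna1 stood at 43.1 against 28.7 CPM (1.5-fold [1.12, 2.03]) and Ncstn, a gamma-secretase subunit, at 26.7 against 17.3 CPM (1.55-fold [1.06, 2.28]) in mothers against virgin females. Jup (plakoglobin) stood at 10.8 against 19.1 CPM (0.57-fold [0.33, 0.94]) in virgin males against virgin females. No other gene of the 5 lists with at least 50 UMIs passed 1.5-fold in any pair.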

How the data were processed

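The authors deposited raw UMI counts per gene and nucleus for 3 libraries (mothers, virgin females, virgin males) and a metadata table with cell classes, cluster numbers and, per the file headers, the percent of mitochondrial UMIs. Per the submitters' processing notes, Cell Ranger 5.0.1 and GRCm38 were used. The sources used here do not give intron counting, nucleus filters or doublet treatment. Nuclei were joined between tables by total UMIs and genes with a UMI, unique for all 603, and the recomputed mitochondrial percent matched with a largest difference of 0. No clustering or doublet caller was run.

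UMIs were summed over neuronal nuclei (Python 3.11.15, pandas 2.3.3, numpy 2.4.6, scipy 1.17.1) and scaled to 1000000. Exact Poisson, conditional binomial and Clopper-Pearson 95% intervals cover counting error only. With 1 library per group no test was made. Members with at least 100 UMIs were named, up to 12 past the cluster rule in full. The members and lists were chosen with earlier results of these data known. A floor of 3 UMIs was used, 1.11, 1.10 and 1.41 CPM in mothers, virgin females and virgin males. Gene positions came from GENCODE M21 and start windows from RefSeq. Computations were tested on simulated counts. Alternatives changed the depth, the nuclei left out, the weighting of clusters and the minimum UMIs and folds.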

Additional observations from a re-analysis of the deposited data

Results flagged for a closer look

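The 11 nuclei outside the neuronal comparisons carried some members above the neuronal level. They were annotated as 3 astrocytes, 5 ependymal cells, 2 oligodendrocytes and 1 polydendrocyte (an oligodendrocyte precursor), with median depths of 3407, 6275, 2248.5 and 3723 UMIs. The values printed after these were picked for an interval above that of the neurons, each with 5 UMIs or more and from few nuclei. In most of these classes 5 UMIs is already a high CPM, so such values were likely to exceed the neurons. Of members with as many UMIs, 1 astrocyte value did not: Pcdh10 stood at 567 CPM [208, 1234], against 203 in neurons. In ependymal cells Cdh7 stood at 85.6 CPM against 116 in neurons, and Cdh2 at 120 against 425. In astrocytes Cdh20 stood at 1229 CPM [654, 2101] from 13 UMIs in 3 of 3 nuclei, against 50.2 CPM in neurons. Pcdh7 there stood at 1985 CPM [1229, 3034] from 21 UMIs in 3 of 3 nuclei, against 345 in neurons, and Pcdh9 at 3498 CPM [2463, 4821] from 37 UMIs in 3 of 3, against 2300.0. Cdh19, which had 5 UMIs in all neurons (0.664 CPM), stood at 1039.8 CPM [519, 1860.5] from 11 UMIs in 1 of 3 astrocytes and at 85.6 CPM [27.8, 199.7] from 5 UMIs in 3 of 5 ependymal nuclei. Cdh26 stood at 359 CPM [222, 549] from 21 UMIs in 4 of 5 ependymal nuclei, against 0.398 CPM in neurons. In oligodendrocytes Pcdh9 stood at 9117 CPM [6543, 12368] from 41 UMIs in 2 of 2 nuclei and Cdh10 at 1112 CPM [361, 2595] from 5 UMIs in 2 of 2, against 238 CPM of Cdh10 in neurons. The polydendrocyte nucleus held Pcdh9 at 8058 CPM from 30 UMIs and Pcdh15 at 4029 CPM from 15, against 598 CPM of Pcdh15 in neurons. The part of these cells' shallow depth in the values was not tested.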

How the results depend on the processing

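The count of members differing between clusters, 15, ranged from 12 to 16 over the alternatives that kept all libraries, and leaving out 1 library gave 16 to 17. Thinning to 4000 UMIs kept 11 of the 15, lost Cdh22, Cdh9 and Pcdh1 (each under 100 UMIs, Pcdh1 also without 1 highest cluster) and Pcdh7, and gained Cdh8 and Cdh18. Leaving out the richest 5% of nuclei kept 12, lost Cdh6, Pcdh11x and Pcdh7, and gained Cdh11. Without mothers Cdh22 and Cdh9 were lost, and without virgin females Cdh22, each with fewer than 100 UMIs left, while gains were Cdh7, Cdh8 and Cdh11, then Cdh11 and Cdh13, and Cdh18 and Pcdh10 without virgin males. With a library left out, the highest cluster had to match in fewer libraries, and 24.3% to 25.9% of all genes passed. Counts between libraries were small and moved with most settings. For mothers against virgin females, the 1 higher and 1 lower members became 0 and 3 when thinned, 2 and 3 without the richest 5%, 0 and 0 with equal cluster weights, 3 and 7 at 20 UMIs, 11 and 22 at 1 UMI in both libraries, and 0 and 0 at 2-fold. The higher count was 0 at 200 UMIs, and the lower count was 2 without each gene's richest nucleus and 4 as a mean over nuclei. For virgin males against virgin females, the 1 higher and 2 lower became 0 and 1 when thinned, 0 and 0 without the richest 5%, 0 and 1 with equal weights, 4 and 6 at 20 UMIs, 18 and 18 at 1 UMI, and 0 and 0 at 2-fold. The lower count was 1 without the 5 nuclei rich in non-neuronal markers and 0 at 200 UMIs. For mothers against virgin males, the 3 higher became 1 when thinned, 1 with equal weights, 6 at 20 UMIs, 1 at 200 UMIs, 15 at 1 UMI and 0 at 2-fold, and the 1 lower became 6 at 20 UMIs and 22 at 1 UMI. Pcdhb17 in virgin males against virgin females turned from a log2 ratio of -0.61 to 0.14 when thinned, and the cause was not tested. Of 63 values of single members under the alternatives, 49 moved by less than their counting interval, 13 by more and 1 changed sign. Clustered genes per nucleus had medians of 0, 1 and 0 in mothers, virgin females and virgin males, 1, 2 and 1 at 8000 UMIs, 2, 2 and 1.5 without thinning, and 0 in virgin females when 2 UMIs were asked for. No paired analysis was possible because each group had 1 library.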
